A study of Mus musculus with 17 samples.

Results

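Bone-marrow-derived cells carrying normal Trem2, taken from the brains of Trem2-knockout 5xFAD mice, were set against microglia of healthy mice, to ask how far replacement cells in an amyloid-bearing brain lie from resident cells of a healthy brain. The comparison used 7 of the 17 libraries of the series, and all genes with a normalized read count of 10 or more in at least 3 of these 7, which were 11365 of 13501 gene symbols. The WT transplant group (4 libraries, S28 to S31) was labelled circulation-derived myeloid cells of Trem2-wildtype genotype, from hosts labelled Trem2-KO; 5XFAD that had received BMT+PLX5622. This treatment joins transplanted bone-marrow cells with PLX5622, an inhibitor of the CSF1 receptor that empties the brain of microglia. The WT 5xFAD group (3 libraries, S22 to S24) was labelled microglia of Trem2-wildtype 5XFAD mice with no treatment, and the normal group (3 libraries: S36, S20 and S21, titled Normal 1, 2 and 3) microglia of genotype No 5xFAD wildtype with no treatment. For a few values, transplanted cells of Trem2-knockout donors (4 libraries, S32 to S35) are given beside these groups. By their titles, these cells too came from Trem2-knockout 5xFAD hosts. 5xFAD mice carry transgenes of familial Alzheimer's disease driven by the neuronal Thy1 promoter and form brain amyloid. All cells were sorted as living CD45+CD11b+ brain cells, and their RNA was amplified with the SMART-Seq v4 kit.

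Between WT transplant cells and normal microglia, 4 things changed together and cannot be told apart: the origin of the cells, the transplant treatment, the amyloid transgenes and the Trem2 genotype of the host. WT 5xFAD microglia share the amyloid background and the wild-type Trem2 of the transplanted cells, and their counts or values are given beside those of the gene lists. Their contrast with normal microglia uses the same 3 normal libraries, so that the contrasts are not independent. The labels give no age, no time after transplantation and no count of the host microglia left in the sorted cells. Nor do they tie each library to its own animal, so that a p-value here rests on differences among libraries, which may be technical.

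Microglia arise from yolk-sac progenitors and renew themselves in the brain, while most other tissue macrophages can be refilled from bone marrow. Their resident identity depends on transcription factors such as SALL1 and on TGF-beta, and is read out by surface proteins such as P2RY12 and TMEM119. Near amyloid plaques they lower these genes and enter a disease-associated (DAM) state, whose second stage requires TREM2, a lipid-sensing receptor that signals through TYROBP. Bone-marrow cells that settle in an emptied brain take on part of the resident programme.

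The recovered read totals ran from 18065645 to 19636762 in WT transplant libraries and from 16044078 to 19289807 in normal libraries. The libraries S30 and S31 lay close together, with a chi-square per degree of freedom of 4.98 between their reads. It was 34.8 to 50.1 for the other WT transplant pairs and 13.6 to 24 for the normal pairs. The WT 5xFAD pairs had 6.21 to 19.2, with S22 and S23 the closest, nearly as close as S30 and S31. S30 and S31 also held more RNA of oligodendrocyte and T cell markers than S28 and S29 (described with the other cell types). S28 stood apart in the other direction, with the highest levels of several resident genes. List counts against normal microglia are therefore given with and without S30 and S31. Those of WT transplant cells directly against WT 5xFAD microglia are given only with both libraries, and some of these calls were lost without them. Below, per-library values follow the order S28, S29, S30, S31 for WT transplant, S22, S23, S24 for WT 5xFAD and Normal 1, 2, 3 for normal microglia. Log2 fold changes were taken on log2(value + 1), which understates the change of low genes, and adjusted p values are limma's, two-sided and Benjamini-Hochberg adjusted over the 11365 genes. Means are given ± SD over the 4 WT transplant, 3 WT 5xFAD or 3 normal libraries. All values are the deposited normalized read counts, which are not per length, so that levels are compared between libraries and not between genes.

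The sorted cells of both groups carried the transcripts that the sort and the genotype call for. Trem2 (chromosome 17, 48346401 to 48354147, GRCm38) had 38648, 37066, 53908 and 52324 normalized reads in the WT transplant libraries and 51400.2, 53077 and 49346 in the WT 5xFAD libraries, against 31205, 32384 and 37459 in the normal libraries. S28 lay just above the highest normal library and S29 just below it, so that the groups overlapped, while S30 and S31 were higher (log2 fold change 0.42, SE 0.15, adjusted p = 0.0415). The call was lost under 11 of 21 other settings, among them leaving out any of S30, S31, S20 or S36. Transplanted cells of Trem2-knockout donors had 4499 ± 601 reads of Trem2 (SD, n = 4). Tyrobp, which encodes the signalling adaptor of TREM2, had 44993, 51095, 76302 and 75651 normalized reads in the WT transplant libraries, against 28484, 30866 and 36165 in the normal libraries, with no overlap (log2 fold change 0.93, SE 0.184, adjusted p = 7.04e-04). Ptprc, the CD45 gene, was higher in WT transplant cells (6149 ± 1174 against 3904 ± 619 in normal microglia, log2 fold change 0.65, adjusted p = 0.0215), a call lost without S30 and S31 and without any of S28, S20 or S36. Itgam, the CD11b gene, was lower in every WT transplant library (3008 ± 308, against 6759 ± 466 in normal microglia; log2 fold change −1.17, SE 0.135, adjusted p = 2.31e-06).

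WT transplant cells were far from normal microglia across the transcriptome. Of 11365 tested genes, 3647 passed an adjusted p of 0.05 in the limma model (32.1%), with 1928 higher (17%) and 1719 lower (15.1%) in WT transplant cells. At least 2-fold changes were reached by 1047 of the higher and 798 of the lower genes. For 4671 genes (41.1%) every WT transplant library lay on the same side of all normal libraries. Without S30 and S31, 2400 genes passed, 1214 higher (10.7%) and 1186 lower (10.4%). WT 5xFAD microglia against the same normal libraries gave 437 genes (3.85%; 322 or 2.83% higher, 115 or 1.01% lower), or 1702 genes with the spread estimated from these libraries alone, and WT transplant cells against WT 5xFAD microglia gave 3289 (28.9%; 1628 or 14.3% higher, 1661 or 14.6% lower). These shares over all tested genes are the background for the list counts below. The median absolute log2 fold change over tested genes was 0.38 for WT transplant against normal microglia, 0.36 for WT transplant against WT 5xFAD microglia and 0.22 for WT 5xFAD against normal microglia.

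A single distance per library gave the same order. It is the root mean square, over the tested genes, of the log2 difference between a library and the mean of the normal libraries, where each normal library was set against the others. The distances were 1.15, 1.24, 1.31 and 1.31 in WT transplant libraries, 0.724, 0.715 and 0.665 in WT 5xFAD libraries, and 0.553, 0.516 and 0.561 in normal libraries. Every WT transplant library thus lay farther from normal microglia than every WT 5xFAD library, and S28 was the nearest of the 4. The mean was 1.25 ± 0.075 (SD, n = 4) in WT transplant cells and 0.701 ± 0.0318 (n = 3) in WT 5xFAD microglia. The difference of 0.55 had p = 0.0286 in an exact two-sided permutation test over 35 splits, the smallest p this design allows. Transplanted cells of Trem2-knockout donors lay at 1.16 to 1.35, in the range of the WT transplant libraries or just above it. The gene filter looked only at WT transplant and normal libraries. Genes high only in WT transplant cells were thus kept, while genes high only in WT 5xFAD microglia could be left out, here and in the counts above. With all genes and no filter, the mean distance was 1.32 ± 0.111 in WT transplant cells and 0.901 ± 0.055 in WT 5xFAD microglia. The difference was then 0.423 (p = 0.0286, same permutation test).

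**Figure D1:**
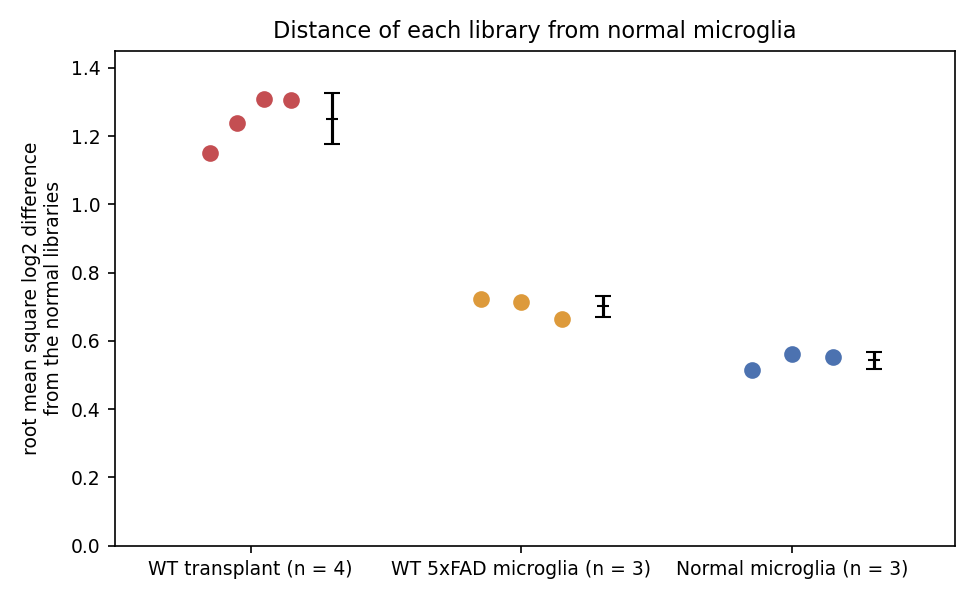
Distance of each library from normal microglia, as the root mean square log2 difference over 11365 genes on the vertical axis, for WT transplant, WT 5xFAD and normal libraries (points); black marks are the mean ± SD of a group. The 4 WT transplant libraries sit between 1.15 and 1.31, all above the WT 5xFAD libraries (0.665 to 0.724) and the normal libraries (0.516 to 0.561).

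The deepest falls included genes of resident microglial identity. Sall1 (chromosome 8, 89027235 to 89044162), which encodes a zinc-finger factor that keeps microglia from becoming inflammatory macrophages, had 251, 98.9, 116 and 118 normalized reads in the WT transplant libraries and 6103, 6317 and 5765 in the WT 5xFAD libraries, against 8731, 8692 and 8386 in the normal libraries. All 4 WT transplant libraries were at 1.15 to 2.91% of the normal mean, with S28 the highest (log2 fold change −5.98, SE 0.398, adjusted p = 2.58e-09). Its relative Sall3 had 52.6, 18.2, 1.31 and 14.6 normalized reads in the WT transplant libraries, against 2062, 2399 and 2079 in the normal libraries (log2 fold change −7.29, SE 0.765, adjusted p = 7.2e-07), with S28 the highest and S30 the lowest. WT 5xFAD microglia kept 70.5% of the normal mean of Sall1 and 80.95% of Sall3.

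The other large falls named by the rule were Upk1b, Mlph, Nav3, Kcnk12, Liph, Ecscr, Sgce, Jam2, Adgrg1 and Slc2a5. Upk1b, a tetraspanin gene, had 86.1, 19.3, 23.7 and 26.8 normalized reads in the WT transplant libraries, against 2390.1, 3339 and 4313 in the normal libraries (log2 fold change −6.61, SE 0.392, adjusted p = 5.77e-10). Adgrg1, which encodes the adhesion receptor GPR56, had 1499, 821, 1171 and 961 normalized reads in the WT transplant libraries, against 34834, 39158 and 33705 in the normal libraries (log2 fold change −5.04, SE 0.347, adjusted p = 3.76e-09). Slc2a5, the gene of a fructose transporter that marks resident microglia, had 1636, 782, 903 and 909 normalized reads in the WT transplant libraries, against 26586, 27822 and 28354 in the normal libraries (log2 fold change −4.77, SE 0.265, adjusted p = 2.47e-10). In each of these 3, the highest WT transplant library was S28, and it was still far below the lowest normal library. The rest had log2 fold changes of −6.30 for Mlph, which links melanosome-like vesicles to myosin, −5.77 for Nav3, a neuron navigator gene, −5.49 for the potassium channel gene Kcnk12, −5.33 for the lipase gene Liph, −5.11 for Ecscr, −5.10 for epsilon-sarcoglycan (Sgce) and −5.06 for the junctional adhesion gene Jam2. In WT 5xFAD microglia, 1 of these 12 genes was called lower against normal microglia, Ecscr (−1.0, adjusted p = 0.0053). The others ranged from −0.71 (Adgrg1) to 0.17 (Liph), none past the threshold of a model whose spread is shared over all 17 libraries. Not passing does not mean unchanged: the WT 5xFAD mean was 61.2% of the normal mean for Adgrg1 and 65.8% for Slc2a5.

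Genes of resident identity were not all lower to the same degree. Of 29 tested homeostatic surface and secreted genes, 27 fell and 0 rose, with a median log2 fold change of −1.46 against −0.0131 over all tested genes; without S30 and S31, 23 fell. Expressed as the WT transplant mean over the normal mean, 5 genes stood below 10%: Ecscr, Adgrg1, Slc2a5, the crystallin gene Crybb1 and the matrix protein gene Sparc. The next 6 stood between 10 and 30%: Selplg, P2ry12, Serpine2, Golm1, Siglech and Gpr34. A further 15 kept 30 to 60%, among them Tmem119, Cst3, Cx3cr1 and Csf1r, and 3 kept more (Tgfbr1, P2ry6 and Fcrls).

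P2ry12 (chromosome 3, 59216272 to 59262871), the ADP receptor that guides microglial processes, had 10483, 6576, 6579.5 and 6899 normalized reads in the WT transplant libraries, against 51732, 44537 and 65571 in the normal libraries (log2 fold change −2.83, SE 0.191, adjusted p = 3.01e-09). S28 kept 19.4% of the normal mean, and the other WT transplant libraries 12.2 to 12.8%. Tmem119, a microglial surface protein, had 60155, 58411, 57131 and 57005 normalized reads in the WT transplant libraries, against 168308, 160760 and 151191 in the normal libraries (log2 fold change −1.46, SE 0.206, adjusted p = 2.41e-05), which is 35.6 to 37.6% of the normal mean in all 4 libraries. Cx3cr1, the fractalkine receptor, had 48124, 48513, 39819 and 35043 normalized reads in the WT transplant libraries, against 88829, 86586 and 84508 in the normal libraries (log2 fold change −1.03, SE 0.148, adjusted p = 2.89e-05). Csf1r, the receptor on which microglia depend and the target of PLX5622, was lower (213459 ± 2374 against 368554 ± 39938 in normal microglia; log2 fold change −0.78, adjusted p = 0.0198), a call lost without S30 and S31, without S20 and without S36.

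Sparc and Crybb1 had the smallest adjusted p of the list after Ecscr, with log2 fold changes of −4.46 (adjusted p = 1.41e-11) and −4.68 (adjusted p = 1.4e-10). Selplg, the gene of a selectin ligand, differed by −3.0. Siglech, a sialic-acid-binding lectin, differed by −1.98 and Gpr34, a lysophospholipid receptor, by −1.73. Fcrls, an Fc receptor-like gene also used as a microglial marker, had 90268, 100483, 98042 and 98896 normalized reads in the WT transplant libraries, against 94806, 101339 and 91874 in the normal libraries, and the groups overlapped (log2 fold change 0.01, adjusted p = 0.94). P2ry6, a UDP receptor linked to phagocytosis, overlapped as well (log2 fold change −0.07, adjusted p = 0.784). In WT 5xFAD microglia the same list had 4 members called lower and 1 higher, with a median of −0.35, and directly against WT 5xFAD microglia 24 members were lower in WT transplant cells and 0 higher. In bulk RNA, fewer cells of a type and less RNA per cell cannot be told apart.

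**Figure D2:**
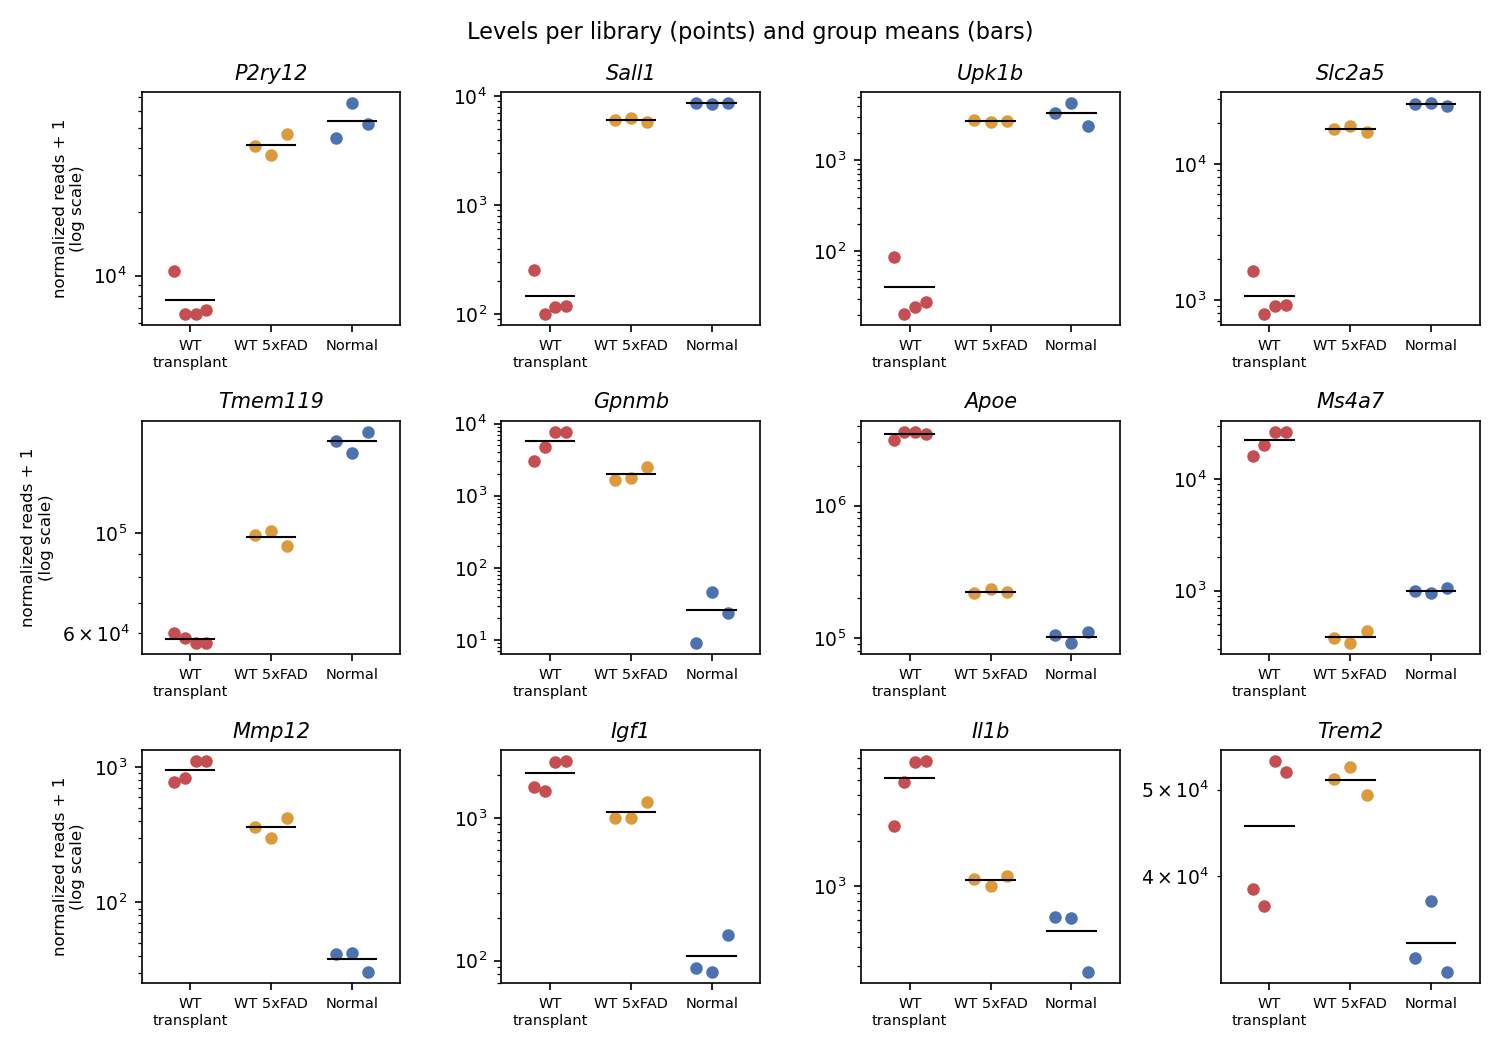
Normalized read counts plus 1 (vertical axes, log scale, a separate range per gene) of 12 genes in WT transplant, WT 5xFAD and normal libraries; points are libraries and bars group means. Sall1, Upk1b and Slc2a5 separate WT transplant libraries from both microglia groups, Ms4a7 and Apoe are highest in WT transplant libraries, and Gpnmb and Igf1 are high in both amyloid groups; Trem2 overlaps.

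Among 18 transcription factors tied to microglial identity, 5 fell and 1 rose (median −0.13; 3 and 1 without S30 and S31, 7 and 2 without S28). Of all tested genes, 15.1% fell and 17% rose. WT 5xFAD microglia had 1 lower and 4 higher than normal microglia. Beside Sall1 and Sall3, the 3 that fell were Smad3, a transducer of TGF-beta (1165 ± 65.9 against 2611 ± 197 in normal microglia, log2 fold change −1.16, adjusted p = 0.00664), Maf (−0.52) and Zfp691 (−0.75). The call of Smad3 was lost without S30 and S31, and that of Zfp691 under 9 of 21 settings, including without any of S29, S31 and the 3 normal libraries. Tgif1 rose (0.93, adjusted p = 1.7e-06). Of the general myeloid factors, Spi1 (PU.1) averaged 8715 ± 666 in WT transplant cells and 9281 ± 112 in normal microglia (log2 fold change −0.09, SE 0.0972), and Irf8 averaged 19168 ± 1027 and 17581 ± 1253 in the same order (log2 fold change 0.13, SE 0.119). Mef2a (−0.42), Mef2c (−0.38), Runx1 (−0.27) and Cebpa (−0.09) did not pass the threshold either.

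Beside the resident genes, most of which were lower but still present, WT transplant cells held transcripts known from brain macrophages of bone-marrow origin. Of 36 tested genes of that list, 28 rose and 2 fell, with a median of 1.91, while in WT 5xFAD microglia 4 rose and 11 fell (median −0.48). Without S30 and S31, 27 rose and 2 fell. The list was chosen with earlier results of these data known, and it shares Apoe, Axl and Lyz2 with the DAM lists. Ms4a7 (chromosome 19, 11321039 to 11336146), a membrane-spanning 4A protein gene used to mark cells of this origin, had 16246, 20411, 26888 and 26708 normalized reads in the WT transplant libraries and 372, 335 and 436 in the WT 5xFAD libraries, against 1063, 985 and 944 in the normal libraries. No WT transplant library came near the microglia groups (log2 fold change 4.47, SE 0.208, adjusted p = 2.6e-11). Klra2, a lectin-like receptor gene of the Ly49 family, had 1468, 1636, 1518 and 1562 normalized reads in the WT transplant libraries, against 69.1, 69.3 and 89.4 in the normal libraries (log2 fold change 4.34, SE 0.266, adjusted p = 9.06e-10); its family members are alike in sequence, so that reads may be shared among them.

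Cybb, the catalytic subunit of the phagocyte oxidase, averaged 24884 ± 1779 in WT transplant cells and 1890.2 ± 215 in normal microglia (log2 fold change 3.72, SE 0.165, adjusted p = 1.41e-11). Cp, which encodes the copper protein ceruloplasmin, rose by 3.75 (adjusted p = 4.95e-11), Lyz2 (lysozyme) by 3.75, Clec12a, an inhibitory lectin, by 3.80, and Aoah, an enzyme that inactivates endotoxin, by 3.29. Tgfbi, a TGF-beta-induced matrix protein gene, rose by 2.21 (adjusted p = 6.63e-11) and the ion channel-like gene Tmem176a by 2.44. Runx3, a factor of blood-derived lineages, had 917, 1289.5, 827 and 866 normalized reads in the WT transplant libraries, against 58.9, 88.4 and 40 in the normal libraries (log2 fold change 3.99, SE 0.503, adjusted p = 6.58e-06). The 2 members that fell were Ly6e (−0.40) and Lpcat2 (−0.48), and Ccr2, Fgr, Dusp6, Gas6 and Cxcl13 were among those that did not pass.

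Apoe, the lipid-carrier gene whose human alleles modify Alzheimer risk, was the most abundant transcript by reads in WT transplant cells. It had 3111700, 3623710, 3597170 and 3448260 normalized reads in the WT transplant libraries and 217208, 234867 and 220777 in the WT 5xFAD libraries, against 111538, 104575 and 91272 in the normal libraries (log2 fold change 5.07, SE 0.187, adjusted p = 2.43e-12). It took 14.6 to 16.2% of all reads in WT transplant libraries, 1.15 to 1.24% in WT 5xFAD libraries and 0.497 to 0.614% in normal libraries. Transplanted cells of Trem2-knockout donors gave 12.3 to 14.3%. No WT transplant library overlapped a microglia library, and the difference from WT 5xFAD microglia was 3.94 on the log2 scale (adjusted p = 2.82e-11).

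The largest rises named by the rule were Gpnmb, Gdf3, Vnn3, Apoe, Acp5, Mmp12, Ms4a7, Cxcr4, Cxcl14, Klra2, Igf1 and Spp1. Gpnmb (chromosome 6, 49036546 to 49070929), a lysosomal glycoprotein of lipid-laden macrophages, had 3053, 4689.6, 7737 and 7609.7 normalized reads in the WT transplant libraries and 1668, 1771 and 2507 in the WT 5xFAD libraries, against 22.7, 8.04 and 44.7 in the normal libraries (log2 fold change 7.98, SE 0.824, adjusted p = 6e-07). Both amyloid groups were thus well above normal microglia, and their difference from each other (1.47) did not pass (adjusted p = 0.197). Gdf3, a growth factor of the TGF-beta family, had 6737, 4845, 12405 and 12159 normalized reads in the WT transplant libraries and 27.5, 27.1 and 42.3 in the WT 5xFAD libraries, against 55.5, 39.2 and 46.6 in the normal libraries (log2 fold change 7.46, SE 0.333, adjusted p = 1.45e-11). WT 5xFAD libraries were thus near or below the normal libraries.

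Vnn3, a vanin ectoenzyme gene, rose by 5.14 (adjusted p = 9.06e-10), Acp5, the tartrate-resistant acid phosphatase, by 4.66 (adjusted p = 1.71e-09) and Mmp12, macrophage elastase, by 4.66 (adjusted p = 1.42e-07). Cxcr4, the receptor that holds blood cells in the bone marrow, had 1544, 1674, 1494 and 1548 normalized reads in the WT transplant libraries, against 102, 68.3 and 49.5 in the normal libraries (log2 fold change 4.46, SE 0.279, adjusted p = 1.15e-09), and all 4 WT transplant libraries were tightly grouped. The chemokine gene Cxcl14 rose by 4.39 (adjusted p = 1.1e-10). Igf1, a growth factor, had 1645, 1556, 2475 and 2526 normalized reads in the WT transplant libraries, against 151, 87.4 and 81.8 in the normal libraries (log2 fold change 4.27, SE 0.493, adjusted p = 2.37e-06). Spp1, osteopontin, had 4776, 10975, 11469 and 12139.7 normalized reads in the WT transplant libraries, against 540.3, 405 and 506 in the normal libraries, with S28 lowest among the WT transplant libraries (log2 fold change 4.26, SE 0.986, adjusted p = 0.00268).

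Against WT 5xFAD microglia, Gdf3 (8.0), Vnn3 (6.10), Klra2 (5.76), Acp5 (4.79), Cxcl14 (3.86) and Cxcr4 (3.54) were all higher in WT transplant cells, as was Mmp12 (1.41, adjusted p = 0.0194; lost without S30 and S31). Igf1 (0.88, adjusted p = 0.198) and Spp1 (1.06, adjusted p = 0.455) did not pass that test. Against normal microglia, WT 5xFAD microglia were called higher for Gpnmb (6.51), Mmp12 (3.25), Igf1 (3.40) and Apoe (1.13) among the 12, and lower for Ms4a7 (−1.39) and Klra2 (−1.42).

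The promoters of 4 of these risen genes are printed as examples with a match to a motif of factors known from macrophages. Of the 12 largest rises, 6 held a match (Gpnmb, Igf1, Mmp12, Spp1, Klra2 and Cxcl14), 5 held none (Apoe, Acp5, Ms4a7, Cxcr4 and Vnn3), and Gdf3 had no promoter in the table. They are RefSeq sequences (GRCm38.p6), 250 bases before to 50 bases after the start, 5′ to 3′ on the gene's strand, with the matches in capitals.
Gpnmb (chr6:49036268-49036567, plus strand): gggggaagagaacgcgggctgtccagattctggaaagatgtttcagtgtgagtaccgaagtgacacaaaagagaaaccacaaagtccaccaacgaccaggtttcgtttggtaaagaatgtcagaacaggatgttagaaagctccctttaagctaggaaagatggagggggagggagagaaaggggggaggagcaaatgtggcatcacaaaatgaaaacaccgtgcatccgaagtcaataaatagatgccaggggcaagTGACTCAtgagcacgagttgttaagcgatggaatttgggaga
Igf1 (chr10:87860861-87861160, plus strand): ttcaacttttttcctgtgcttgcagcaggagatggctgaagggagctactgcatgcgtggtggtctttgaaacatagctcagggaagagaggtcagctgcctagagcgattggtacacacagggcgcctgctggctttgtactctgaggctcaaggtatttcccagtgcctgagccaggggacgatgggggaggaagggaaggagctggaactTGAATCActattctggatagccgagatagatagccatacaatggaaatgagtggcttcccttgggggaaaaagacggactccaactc
Mmp12 (chr9:7344147-7344446, plus strand): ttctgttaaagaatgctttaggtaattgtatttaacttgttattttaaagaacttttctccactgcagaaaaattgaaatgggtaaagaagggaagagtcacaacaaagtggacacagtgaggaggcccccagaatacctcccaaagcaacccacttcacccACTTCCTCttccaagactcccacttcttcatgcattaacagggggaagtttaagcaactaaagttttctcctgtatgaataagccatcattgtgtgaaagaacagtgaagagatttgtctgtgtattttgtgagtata
Spp1 (chr5:104434861-104435160, plus strand): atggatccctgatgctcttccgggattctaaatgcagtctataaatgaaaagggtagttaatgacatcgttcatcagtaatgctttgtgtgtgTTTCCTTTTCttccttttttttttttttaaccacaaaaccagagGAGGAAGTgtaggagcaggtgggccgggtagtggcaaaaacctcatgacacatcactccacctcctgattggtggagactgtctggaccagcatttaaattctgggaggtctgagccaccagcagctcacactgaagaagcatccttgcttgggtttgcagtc
The capitals in Gpnmb (TGACTCA) and Igf1 (TGAATCA) match TGANTCA, a loose form of the AP-1 type motif whose middle base is free. Those in Mmp12 match the PU.1 type motif GAGGAAGT on the opposite strand. Those in Spp1 match first an interferon-factor type motif (GAAA, 2 free bases, GAAA) on the opposite strand and then GAGGAAGT. Both strands were searched, N stands for any base, and no matches overlapped in these promoters. Over the table's 27025 promoters, 7.93% held TGANTCA, 3.28% GAGGAAGT and 3.49% the interferon-factor type motif. A promoter was found for 9160 of the 11365 tested genes. TGANTCA stood in 6.33% of 1516 promoters of genes called higher and 4.13% of 1381 of genes called lower, against 4.86% of the tested genes with a promoter. In the same order, the shares were 3.63, 3.62 and 3.36% for GAGGAAGT and 4.49, 2.75 and 3.14% for the interferon-factor type motif. The lysosomal gene motif TCACGTGA was searched too (2.57, 1.74 and 2.04%). The share of promoters with a match to any of these motifs was not counted. A match is a description of letters and not of binding, and a promoter without one allows no statement about a factor.

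Genes of the DAM state were mostly raised in WT transplant cells, but not in the proportions of WT 5xFAD microglia. Of 11 stage 1 genes, 10 rose and 0 fell (median 1.05, the same counts without S30 and S31), and in WT 5xFAD microglia 7 rose and 0 fell (median 0.78). Of 30 stage 2 genes, 24 rose and 3 fell (median 2.14), and without S30 and S31, 22 rose and 3 fell. In WT 5xFAD microglia, 27 stage 2 genes rose and 0 fell (median 2.46). Directly against WT 5xFAD microglia, 8 stage 2 genes were higher in WT transplant cells and 10 lower. The plot of DAM genes shows both contrasts side by side.

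Higher in WT transplant cells than in WT 5xFAD microglia were Axl, a receptor for dying cells (values 52568, 55631, 58451 and 58919 in WT transplant, 14171, 14160.2 and 14292 in WT 5xFAD and 3617, 3341 and 3280 in normal libraries), with a log2 difference of 1.99 from WT 5xFAD microglia (adjusted p = 1.85e-08), and Lgals3, galectin-3 (2.31, adjusted p = 6.59e-05). The antioxidant gene Gpx3 (2.48), the lipid-droplet coat gene Plin2 (1.01) and the tetraspanin gene Cd63 (0.94) were also higher, as were the stage 1 genes Lyz2 (3.78) and Fth1, the ferritin heavy chain (1.54).

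Lower than in WT 5xFAD microglia was Cst7, an inhibitor of lysosomal cysteine proteases and a hallmark of the DAM state. It had 1079, 1665, 1922 and 1950.3 normalized reads in WT transplant libraries, 21691, 21157 and 24879 in WT 5xFAD libraries and 335, 326 and 337 in normal libraries. WT transplant cells were above normal microglia (2.27, adjusted p = 1.67e-05) and below WT 5xFAD microglia (−3.80, adjusted p = 3.18e-08), with no overlap among the 3 groups. Ank, a pyrophosphate transporter, followed the same order (log2 difference −2.32 from WT 5xFAD and 1.12 from normal microglia). In 3 members, WT transplant cells were below normal microglia too. Csf1, a ligand of the CSF1 receptor, had 284, 332, 569 and 524 reads in WT transplant libraries, 5639, 5646 and 6502 in WT 5xFAD libraries and 711, 732 and 793 in normal libraries. Its log2 differences were −3.85 from WT 5xFAD and −0.86 from normal microglia (adjusted p = 2.18e-08 and 0.0387). The call against normal microglia was lost without any of S28, S29 or the 3 normal libraries. The others were the chemokine gene Ccl6 (−1.38 from normal, −2.95 from WT 5xFAD microglia) and the protease gene Ctsl (−1.54 and −2.25).

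Lpl (lipoprotein lipase) rose by 2.32 in WT transplant cells and by 3.64 in WT 5xFAD microglia against the same normal libraries, Clec7a (dectin-1) by 3.13 and 3.03, and Ch25h, which makes 25-hydroxycholesterol, by 3.96 and 3.29. The direct difference did not pass for Itgax (CD11c; adjusted p = 0.128), Clec7a (adjusted p = 0.9) or Ch25h (adjusted p = 0.176), and passed for Lpl, which was lower in WT transplant cells (−1.32, adjusted p = 0.0112). Kcnj2, a potassium channel, was at −0.04 against normal microglia (adjusted p = 0.934) and −2.0 against WT 5xFAD microglia (adjusted p = 4.72e-05).

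**Figure D3:**
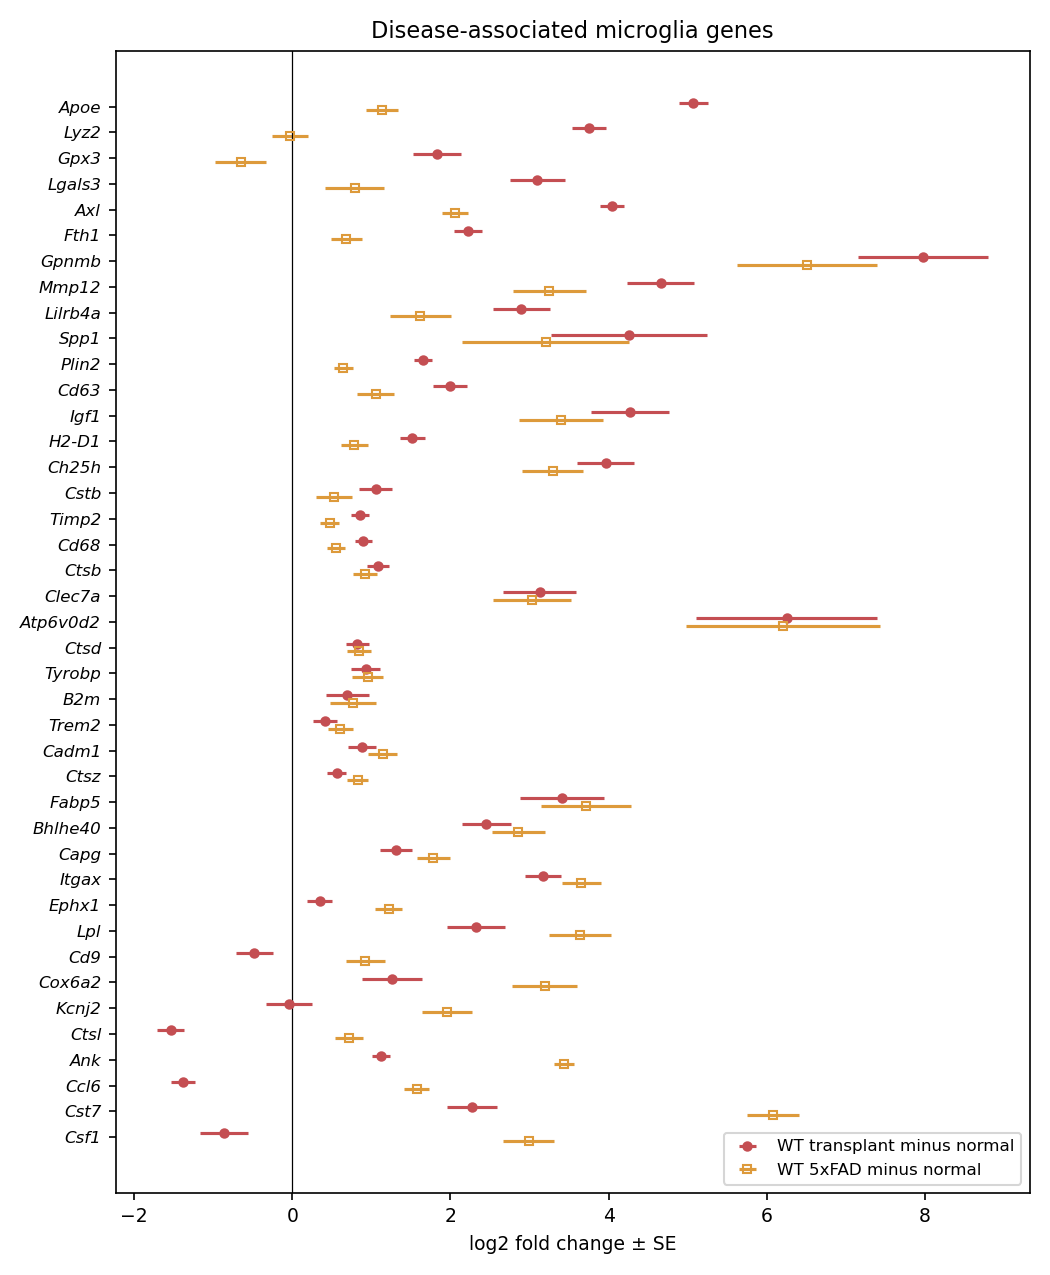
Log2 fold change ± SE (horizontal axis) of the tested DAM stage 1 and 2 genes for WT transplant minus normal (filled circles) and WT 5xFAD minus normal (open squares), ordered by their difference. Genes such as Apoe, Lyz2 and Axl at the top are higher in WT transplant cells; Csf1, Cst7, Ccl6 and Ank at the bottom are lower. The 3 normal libraries enter both contrasts.

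Lipid handling genes rose broadly. Of 32 tested, 18 rose and 1 fell (median 1.29; 17 and 1 without S30 and S31; 10 and 1 in WT 5xFAD microglia); the list shares Apoe, Lpl, Fabp5, Ch25h and Plin2 with the DAM lists. The scavenger receptor gene Msr1 had 3610, 2907, 2811 and 2798 normalized reads in the WT transplant libraries, against 221, 168 and 199 in the normal libraries (log2 fold change 3.95, SE 0.242, adjusted p = 9.06e-10), and Cd36, a fatty acid and lipoprotein receptor, averaged 3598 ± 466 in WT transplant cells and 597 ± 16.4 in normal microglia (log2 fold change 2.58, SE 0.2, adjusted p = 1.53e-08). Both were also higher than in WT 5xFAD microglia (Msr1 3.99, Cd36 3.81). Soat1, which esterifies cholesterol, rose by 1.38, the droplet coat genes Plin2 by 1.65 and Plin3 by 1.94, the phospholipid transfer gene Pltp by 1.77, the lysosomal lipase gene Lipa by 1.20 and Nr1h3, which encodes the sterol sensor LXR-alpha, by 2.6. The efflux pumps Abca1 (0.87) and Abcg1 (0.50) rose as well (the call of Abcg1 was lost without S30 and S31 and without S36), and Mylip, which degrades lipoprotein receptors, fell by 0.90 on the log2 scale.

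Cholesterol synthesis genes were called higher at about the share of all tested genes. Of 24 tested, 4 rose (Tm7sf2, Mvk, Hsd17b7 and Pmvk) and 1 fell (Hmgcs1), with a median of 0.08, near that of all genes (3 and 0 without S30 and S31; 2 and 0 in WT 5xFAD microglia); the calls of Mvk and Hmgcs1 were lost without S30 and S31, that of Hmgcs1 also without S21, and those of Hsd17b7 and Pmvk without S36, the first also without S20. Sqle, a rate-limiting enzyme, was at −0.07 against normal microglia (adjusted p = 0.909), while WT 5xFAD microglia were at 1.59 (adjusted p = 0.0162), and the direct difference was −1.65 (adjusted p = 0.00119).

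Lysosome genes rose in 18 of 34 cases and fell in 3 (median 0.40; 13 and 3 without S30 and S31; 11 and 0 in WT 5xFAD microglia). Gla, alpha-galactosidase, rose by 2.41 (adjusted p = 1.39e-06), the protease genes Ctsc by 1.39 and Ctsb by 1.08, and the glucuronidase gene Gusb by 0.73. Those that fell included Ctsl and the protease gene Lgmn (−0.77, adjusted p = 2.61e-05). The regulators Tfeb (−0.12) and Mitf (−0.12) did not pass. In glycolysis and hypoxia, 12 of 23 rose and 0 fell (median 0.41; 9 and 0 without S30 and S31), against 14 and 0 in WT 5xFAD microglia (median 0.60). Vegfa, a vascular growth factor gene, was at 1.8 in WT transplant cells, a call lost under 6 of 21 settings, including without any of S30, S31, S20 or S36. Others that rose were the phosphofructokinase gene Pfkp (1.76) and Gpi1 (1.26). The oxygen-sensing factor Hif1a, at 0.04 against normal microglia (adjusted p = 0.926), was lower in WT transplant cells than in WT 5xFAD microglia (−1.50, adjusted p = 1.69e-04), and so was its target Egln3 (−4.27, adjusted p = 1.77e-06).

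Transcripts of MHC class II antigen presentation were mostly higher in WT transplant cells. Of 10 genes, 7 rose and 1 fell (median 1.25), with the same counts without S30 and S31, while in WT 5xFAD microglia 1 rose and 4 fell (median −0.60). Cd74, the invariant chain, had 156301, 130862, 244051 and 244423 normalized reads in the WT transplant libraries, against 62116, 61872 and 56789.8 in the normal libraries (log2 fold change 1.63, SE 0.216, adjusted p = 1.14e-05). Among the subunits, H2-Aa had 34962, 29929.7, 58215 and 58564 normalized reads in the WT transplant libraries, against 14286, 13414 and 14249 in the normal libraries (log2 fold change 1.64, SE 0.183, adjusted p = 1.57e-06). WT transplant libraries did not overlap normal libraries in either gene, and S30 and S31 were the highest. H2-Ab1 rose by 1.67, H2-Eb1 by 1.36, the peptide-loading gene H2-DMa by 1.28 and Ciita, the master regulator of the pathway, by 1.22. H2-Oa, which restrains peptide loading, fell by 1.19 on the log2 scale (adjusted p = 9.23e-06).

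MHC class I genes rose in 13 of 16 cases and fell in 0 (median 0.65; 7 and 0 without S30 and S31; 1 and 0 in WT 5xFAD microglia), among them the regulator Nlrc5 (1.90), H2-D1 (1.52), H2-K1 (1.36) and the immunoproteasome gene Psmb8 (0.69). H2 genes share sequence, and reads may be split among them. Interferon response genes rose in 17 of 32 cases and fell in 1 (median 0.87; 11 and 0 without S30 and S31), against 6 and 0 in WT 5xFAD microglia (median 0.88). Bst2, tetherin, had 10448, 11260, 13605 and 12835 normalized reads in the WT transplant libraries, against 1845, 1928 and 2101 in the normal libraries (log2 fold change 2.61, SE 0.136, adjusted p = 1.1e-10), and Ifi207 rose by 2.54. Both were also higher than in WT 5xFAD microglia (2.19 and 2.15). Classic members such as Ifit1 (0.22), Isg15 (0.49) and Mx1 (1.27) did not pass.

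Cytokine and NF-kB genes rose in 21 of 29 cases and fell in 2 (median 1.06), a count that was 10 and 3 without S30 and S31. The WT 5xFAD count was 9 and 0. Il1b, interleukin-1 beta, had 2489, 4907, 6623 and 6763 normalized reads in the WT transplant libraries, against 271, 628 and 617 in the normal libraries, with S28 lowest of the WT transplant libraries and no overlap (log2 fold change 3.35, SE 0.329, adjusted p = 3.18e-07). Cxcl16, a chemokine and scavenger receptor, had 16068, 18001, 18836 and 18709 normalized reads in the WT transplant libraries, against 2734, 2381 and 2747 in the normal libraries (log2 fold change 2.77, SE 0.0939, adjusted p = 2.26e-12). Tlr2 rose by 1.83, Ccl12 by 1.84, Cxcl1 by 3.93, Cxcl2 by 3.28 and Cd83 by 1.33. The genes that fell were Il6 (−3.60, adjusted p = 7.99e-04) and Nfkb1 (−0.90, adjusted p = 9.56e-06). Ccl3 and Ccl4 were higher than in normal microglia (1.06 and 1.06), calls lost under 10 of 21 settings each, including without any of S29, S30, S31, S21 or S36, and were lower than in WT 5xFAD microglia (−2.39 and −2.21).

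Immediate early genes, which also respond to the dissociation of tissue, rose in 12 of 22 cases and fell in 1 (median 0.79; 10 and 0 without S30 and S31), against 11 and 0 in WT 5xFAD microglia (median 0.96). Fos rose by 2.13 (adjusted p = 4.07e-06), Fosb by 2.0, Nr4a1 by 2.25 and Atf3 by 1.94, while Egr1 (0.21) and Jun (0.09) overlapped between the groups. Their part in the cytokine result was not tested.

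TGF-beta genes were split, with 5 higher and 9 lower of 23 (median −0.38; 2 higher and 0 lower in WT 5xFAD microglia). The shares over all tested genes were 17% higher and 15.1% lower. Smad3, Smad7 (−1.11), Smad2 (−0.64), the receptor gene Tgfbr1 (−0.69) and the ligand gene Tgfb1 (−0.62) were lower; the call of Tgfb1 was lost without S20 or S21, and those of Smad3 and Tgfbr1 without S30 and S31. Eng, the co-receptor endoglin, had 488, 459, 544 and 462 normalized reads in the WT transplant libraries, against 3593, 4466 and 3807 in the normal libraries (log2 fold change −3.01, SE 0.278, adjusted p = 1.42e-07), and the BMP receptor gene Bmpr1a fell by 4.06 on the log2 scale (adjusted p = 1.3e-06). In the other direction, Acvrl1, another receptor of this family, had 5053, 4995, 6234 and 5939 normalized reads in the WT transplant libraries, against 1238, 1582 and 1349 in the normal libraries (log2 fold change 2.0, SE 0.125, adjusted p = 1.15e-09), the integrin gene Itgb8, whose protein activates TGF-beta, rose by 3.49 (adjusted p = 1.02e-05), and Ltbp3, which stores latent TGF-beta, by 3.03 (adjusted p = 3.7e-08). The receptor Tgfbr2 (0.46) and the microglial TGF-beta carrier Nrros (0.26) did not pass. Without S30 and S31, 5 were higher and 6 lower.

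Some adhesion and migration receptors changed, in both directions. The counts stand beside 17% higher and 15.1% lower over all tested genes. Those shares were 10.7 and 10.4% without S30 and S31, and 2.83 and 1.01% in WT 5xFAD microglia. Of 16 integrin genes, 7 rose and 4 fell (4 and 2 without S30 and S31; 2 and 0 in WT 5xFAD microglia). Itgal (CD11a) had 3025, 4295, 4099 and 4031 normalized reads in the WT transplant libraries, against 386, 432 and 244 in the normal libraries (log2 fold change 3.47, SE 0.317, adjusted p = 1.3e-07) and Itga4 (the VLA-4 subunit) rose by 3.11, while Itgb3 had 135, 121, 147 and 87.8 normalized reads in the WT transplant libraries, against 1729, 2609 and 1858 in the normal libraries (log2 fold change −4.06, SE 0.303, adjusted p = 9.37e-09). The first 2 are known from circulating leukocytes. Of 14 chemokine receptor genes, 4 rose and 4 fell (4 and 3 without S30 and S31; 1 and 1 in WT 5xFAD microglia). Ccr1 had 6588, 5799, 5153 and 5520.4 normalized reads in the WT transplant libraries, against 852, 615 and 609.8 in the normal libraries (log2 fold change 3.07, SE 0.182, adjusted p = 5.77e-10) and Cxcr3 rose by 2.0. Ccr2, which draws monocytes into tissue, was at −0.63 with overlapping groups (adjusted p = 0.126).

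Of 20 Fc and C-type lectin receptor genes, 8 rose and 4 fell, but 5 rose and 7 fell without S30 and S31. The WT 5xFAD count was 1 and 7. The lectin genes Clec4d (4.33), Clec12a (3.80), Clec4n (2.34) and Clec7a (3.13) rose and Fcgr3 (−0.80) and Clec4a3 (−1.07) fell, while Fcgr1 (−0.02) and Fcgr2b (−0.02) did not pass. Of 18 complement genes, 5 rose and 5 fell (5 and 3 without S30 and S31; 6 and 2 without S28; 3 and 1 in WT 5xFAD microglia). Both lists stand beside 17% higher and 15.1% lower over all tested genes. C3, the central component, had 1798, 1852, 2082 and 2200.3 normalized reads in the WT transplant libraries, against 443, 310.5 and 236 in the normal libraries (log2 fold change 2.63, SE 0.233, adjusted p = 8.65e-08), and its receptor gene C3ar1 rose by 1.07. The C1q chains, which microglia produce in quantity, did not pass (C1qa 0.28, C1qb 0.23, C1qc 0.12).

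**Figure D4:**
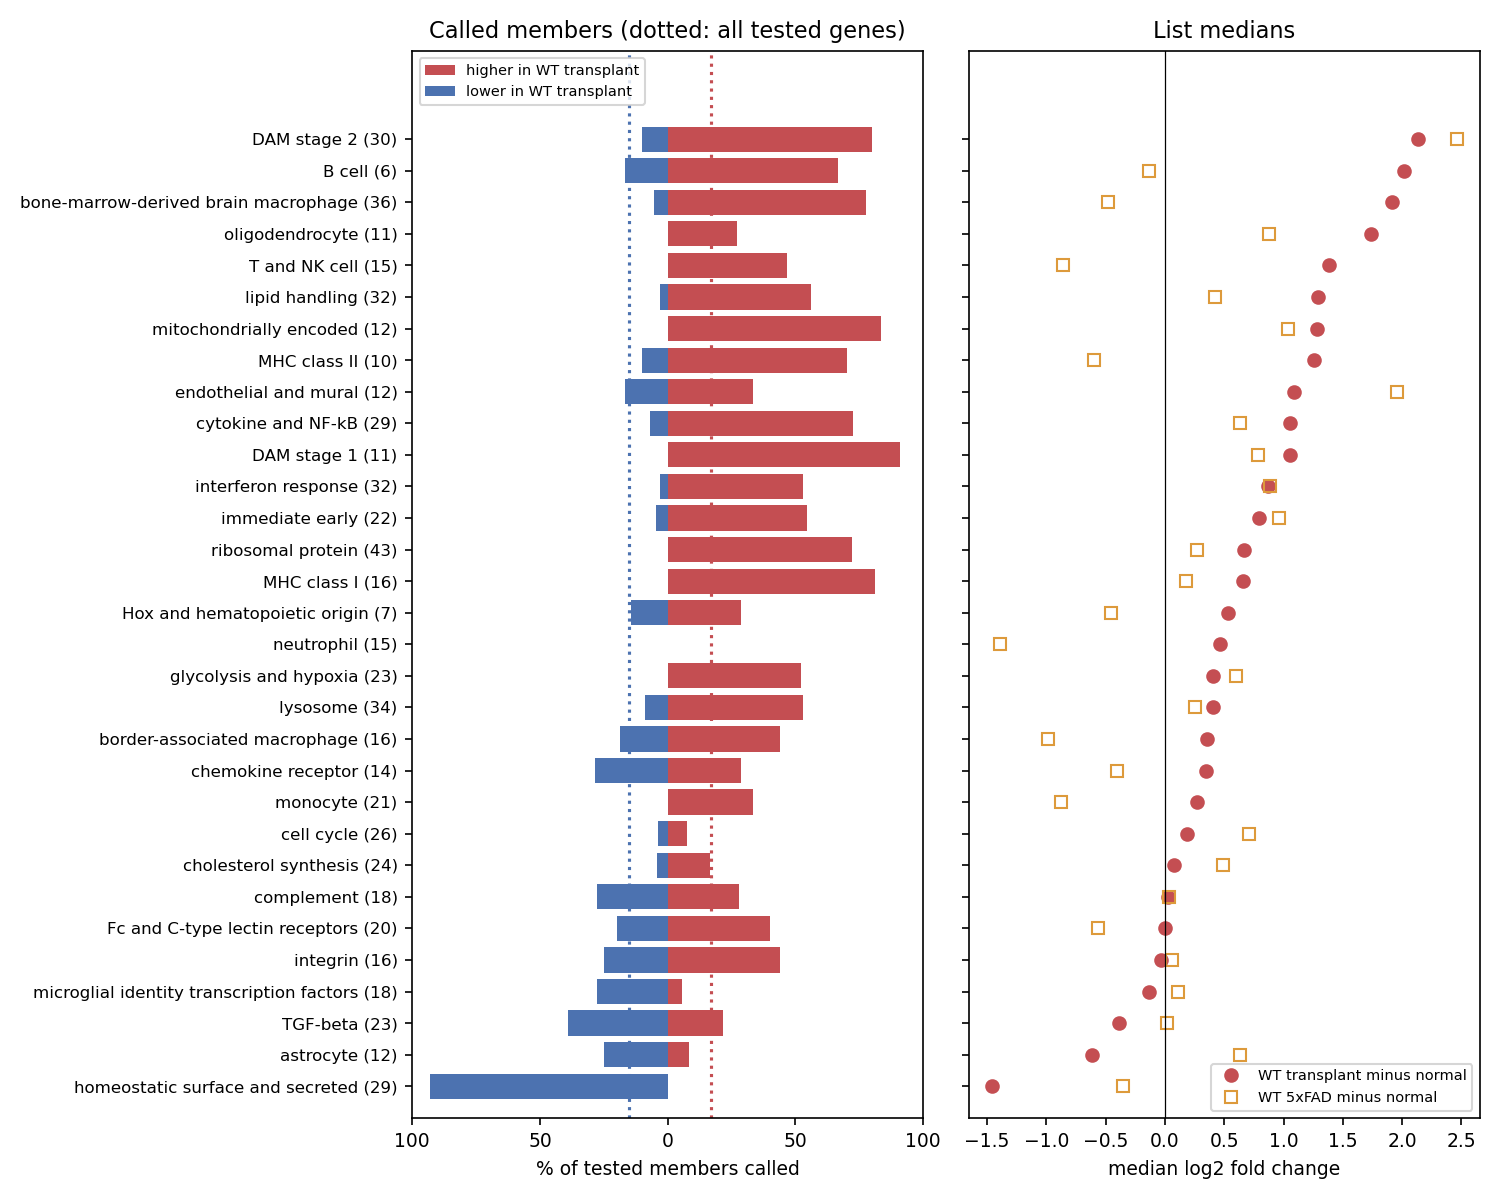
Gene lists with at least 5 tested members (number tested in brackets), ordered by median. Left, the percentage of members called higher (red, to the right) or lower (blue, to the left) in WT transplant cells against normal microglia, with dotted lines at 17% and 15.1%, the shares over all tested genes. Right, median log2 fold changes of WT transplant minus normal (circles) and WT 5xFAD minus normal (squares), which share the normal libraries. Homeostatic genes stand lowest, with 27 of 29 members lower.

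Markers of other cells that the sort could hold were summed per library. Oligodendrocyte markers (15 genes in the table) summed to 7112, 11211, 25738 and 25982 normalized reads in WT transplant libraries, against 5744, 5665 and 5490 in normal libraries. Mbp, a myelin gene, had 3379, 7042, 5454 and 5373 normalized reads in the WT transplant libraries, against 1679, 1548 and 1406 in the normal libraries, and was above the normal range in all 4 WT transplant libraries. In all, 3 of 11 tested members were called higher (Mobp, Cspg4 and Mbp), with a median of 1.74, beside 17% of all tested genes called higher. The call of Cspg4 was lost without S20, without S21 and without S30 and S31. The count was 7 by edgeR, 8 by DESeq2 and 7 without S28; without S30 and S31, 2 were higher and 1 lower (median −0.31). WT 5xFAD microglia had 1 higher. T and NK cell markers (15 genes) summed to 897, 1775, 4655 and 4751 in WT transplant libraries, against 1059, 1756 and 1414 in normal libraries. Cd3e had 13.4, 105, 405 and 331 normalized reads in the WT transplant libraries, against 15.9, 28.1 and 18.1 in the normal libraries. Of the T and NK list 7 members rose, and 11 without S28. In WT 5xFAD microglia, 0 were higher and 2 lower, and the sum ran from 652 to 694. Without S30 and S31, limma called 0 higher and 1 lower, with 2 higher and 1 lower at an unadjusted p under 0.05. Cd3e was also lost without S29 and without any of the single libraries S30, S31, S20, S21 and S36. Among 6 B cell genes 4 rose and 1 fell, and 1 rose without them, Cd22 (1.84), which microglia also express.

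Monocyte markers (22 genes) summed to 12329.7, 12986, 14207 and 14396 in WT transplant libraries, against 5694, 6593 and 4539 in normal libraries. Of 21 tested, 7 rose and 0 fell (5 and 0 without S30 and S31), among them Itgal, Itga4 and Cd44 (2.23), an adhesion receptor for hyaluronan. The defining genes of classical monocytes did not pass against normal microglia: Ly6c2 was at 0.79 (adjusted p = 0.105), Ccr2 at −0.63 and Plac8 at 0.08. Against WT 5xFAD microglia, whose monocyte sum was 4415 to 4726, 12 members were higher and 0 lower, Ly6c2 (1.74, adjusted p = 0.00119) and Plac8 (1.28, adjusted p = 0.0059) among them. Neutrophil markers (15 genes) summed to 24679.7, 27836, 32213 and 32477 in WT transplant libraries, against 24825, 33158 and 19835 in normal libraries, and 0 of 15 were called by limma, with 0 at an unadjusted p under 0.05, 0 by edgeR and 1 by DESeq2. WT 5xFAD libraries summed to 15510 to 18294, and against them 12 neutrophil genes were higher in WT transplant cells and 0 lower (median 1.87), among them S100a8 (2.06) and Ly6g (1.94). Of border-associated macrophage genes, 7 of 16 rose and 3 fell, and without S30 and S31, 6 rose and 7 fell. The WT 5xFAD count was 0 and 6. Mrc1 (1.49), Pf4 (1.85) and Dab2 (1.88) rose, while Cd163 had 131, 40.9, 61.8 and 59.8 normalized reads in the WT transplant libraries, against 1231, 680.3 and 507 in the normal libraries (log2 fold change −3.47, SE 0.382, adjusted p = 1.29e-06) and Lyve1 was at −1.39, a call lost under 9 of 21 settings, including without any of S28, S29, S20 or S36.

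Of 12 tested astrocyte genes, 1 was called higher (Gfap) and 3 lower (Slc1a3, Gja1 and Slc4a4), with 0 and 2 without S30 and S31. The rest did not pass, and the call of Gfap was lost under 5 of 21 settings. In WT 5xFAD microglia 1 was higher and 0 lower. Astrocyte markers (12 genes) were lower in sum, with 1275 to 2016 in WT transplant libraries against 5359 to 7055 in normal libraries. Slc1a3, a glutamate transporter, made most of this: it had 246, 122, 225 and 229 normalized reads in the WT transplant libraries and 4503, 4347 and 3241 in the WT 5xFAD libraries, against 4325, 3830.4 and 3707 in the normal libraries (log2 fold change −4.31, SE 0.276, adjusted p = 1.51e-09). Endothelial and mural markers (13 genes) summed to 11644 to 17947 in WT transplant and 12488 to 13773 in normal libraries, with 4 of 12 tested genes higher and 2 lower (1 and 3 without S30 and S31). The astrocyte and endothelial counts stand beside 17% higher and 15.1% lower over all tested genes. Neuron markers summed to 72 to 112.6 reads in WT transplant libraries and 45.3 to 70.3 in normal libraries. Whether RNA of other cells adds to the changes of shared genes was not tested.

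**Figure D5:**
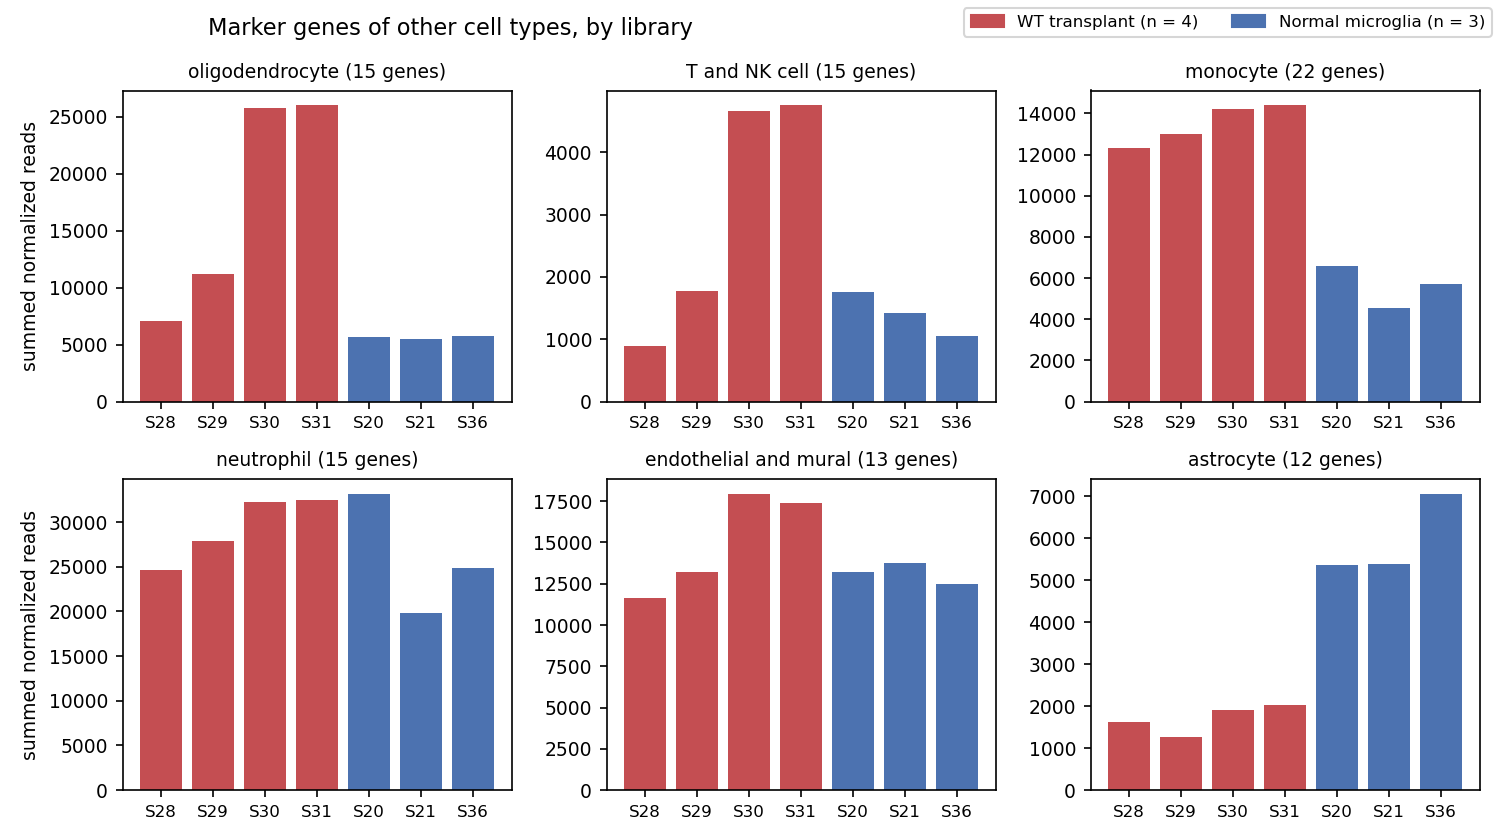
Summed normalized reads (vertical axes, from 0) of marker genes of 6 other cell types in the 4 WT transplant libraries (red, S28 to S31) and the 3 normal libraries (blue). S30 and S31 hold 25738 and 25982 reads of oligodendrocyte markers and 4655 and 4751 of T and NK cell markers. The astrocyte sum is higher in normal libraries, mostly through Slc1a3.

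Ribosomal protein genes rose in 31 of 43 cases and fell in 0 (median 0.66), and 10 rose without S30 and S31 (0 in WT 5xFAD microglia by limma); these genes have many processed copies in the genome, and reads may be shared with them. Mitochondrially encoded genes rose in 10 of 12 cases (median 1.29; 1.03 in WT 5xFAD microglia, where limma called 0) in 6 without S28 and in 0 without S30 and S31, where 3 had an unadjusted p under 0.05, with mitochondrial reads at 0.0856 to 0.147% in WT transplant libraries and 0.0579 to 0.0826% in normal libraries. Cell cycle genes gave 2 higher (Mcm4 and Mcm6) and 1 lower (Tyms, lost without any of S28, S29, S31 or the 3 normal libraries) of 26, the same counts without S30 and S31, and Mki67, a marker of cycling cells, had 31.3, 7.96, 43.4 and 32.9 normalized reads in the WT transplant libraries, against 38.5, 20.1 and 5.71 in the normal libraries, with overlap (log2 fold change 0.53, adjusted p = 0.584). Of 7 tested Hox and hematopoietic-origin genes, Runx3 and Hoxb4 (2.53) rose and Meis1 (−3.31) fell; the level of Hoxb4 was near the filter (13 ± 3.37 in WT transplant cells, 2.24 ± 3.05 in normal microglia), and its call was lost without S30 and S31 and without any of S31, S20 or S36.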

How the data were processed

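Brain myeloid cells of 5 groups (17 libraries) were measured by RNA-seq. The deposited table holds, per gene symbol, normalized reads of unit signal, which are the authors' read counts divided by 1 size factor per library; the submitters' processing notes name bcl2fastq, STAR 2.5.2b, HTSeq, RSEM, DESeq2 3.17, mm10 and GRCm38.p6, with no roles. Whole reads were recovered for 100% of the values below 5000 (within 0.02 of a whole number). Genes with 10 or more normalized reads in at least 3 of the 7 libraries compared were tested. limma 3.58.1 (R 4.3.3; trend, pseudocount 1) was fitted with a mean per group over all 17 libraries, and p-values were adjusted over 11365 genes (threshold 0.05). edgeR 4.0.16 and DESeq2 1.42.0 on the recovered reads, other scalings, filters, pseudocounts and left-out libraries were alternatives. The fit was tested on simulated counts. Distances used an exact permutation test. The rule for named genes took 12 fixed genes, the 12 largest non-overlapping called rises and falls of well-expressed genes, and up to 6 members of each of 32 lists by smallest p; other list members named were chosen after their values were seen. Members and lists were chosen with earlier results of these data known. A few genes are not reported here. The normal libraries carry a number matching 1 sample; columns of other groups were matched to their group. Positions are from GENCODE's GRCm38 annotation and promoters from RefSeq GRCm38.p6; 13477 of 13501 symbols had a position. Depth was 16044078 to 19636762 reads in the 7 libraries, and counting error weighs most on genes near the filter.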

Additional observations from a re-analysis of the deposited data

Results flagged for a closer look

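In the WT transplant group of 4 libraries, 16 of 195 measures examined had a library set apart from the others by more than Dixon's 95% limit. The rate of about 1 in 20 by chance holds only for independent libraries. S30 and S31 lay close together, and the measures are not independent either. The count therefore cannot be set against that rate. S28 was the high library for the resident genes P2ry12 (10483.4 normalized reads), Sall1 (250.51), Slc2a5 (1636.14) and Upk1b (86.11), for the scavenger receptor gene Msr1 (3610.02) and for the interferon-induced gene Ifi204 (1278.27). In all 6, the WT transplant libraries remained separate from the normal libraries. S28 was the low library for Spp1 (4776.45), for the immediate early gene Fosb (343.33), for the oligodendrocyte gene Mobp (568.12) and for the progenitor gene Cspg4 (31.31). S29 stood apart for H2-Oa (325.22), Hmgcs1 (399.14), Mrc1 (4913.6), Sgce (35.25) and the neuronal gene Snap25 (42.07), and S31 for the complement gene C1ra (392.74).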

How the results depend on the processing

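Among 173 named genes that passed the test, 139 kept the call under all 21 other settings, 144 kept it without any single library, and 0 changed direction. With array weights 5524 genes were called, 2707 lower; without S30 and S31, 2400 were called, 1214 higher, and 30 of the 173 named calls were lost. With TMM, another scaling of the recovered reads, 1716 were higher and 2024 lower, and with edgeR 1748 and 1941. Which direction held more calls thus changed with the scaling. Leaving out 1 library gave 2785 (without S36) to 3866 (without S28) calls. Against WT 5xFAD microglia, 2167 genes (944 higher) were called without S30 and S31, a setting chosen after seeing the data. WT 5xFAD against normal microglia gave 742 calls (487 higher, 255 lower) with DESeq2 and 1702 (920 higher, 782 lower) with only the libraries compared. The difference in distance was 0.494 (p = 0.1, exact permutation test) without S30 and S31 and 0.531 to 0.584 (p = 0.1) without 1 WT transplant library, the smallest p these designs allow. The cause of these changes was not tested. No paired analysis was possible because the columns outside the normal group all carry the same number. Depth limits genes near the filter, such as Hoxb4.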
